A study of Mus musculus with 6 samples.

Results

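The 8 genes described here encode the core of transforming growth factor beta (TGF-beta) signalling: the ligands Tgfb1 and Tgfb2, the receptors Tgfbr1 and Tgfbr2, the signal carriers Smad2, Smad3 and Smad4, and the inhibitor Smad7. They were taken by gene symbol from the deposited table, and all 8 are among its 12968 genes. The samples were left hemisphere middle sections of 6 mouse brains, from which ribosome-bound RNA was pulled down with the RiboTag allele, in which Cre recombinase switches on a tagged form of the ribosomal protein Rpl22. In 3 mice the middle cerebral artery had been occluded for 1 h (MCAO), which models ischemic stroke, and 3 control mice had no occlusion; the mice were killed after 3 days. The series title names astrocytes as the target of the precipitation, whereas the Cre driver, the strain, the age and the sex of the mice are not given in the labels used here, and no sham operation is described. Both groups therefore share the RiboTag precipitation of the same hemisphere and differ, per the labels, in the occlusion.

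TGF-beta ligands are secreted in a latent form and are released by integrins and proteases. The free ligand binds the type II receptor, encoded by Tgfbr2, which recruits and activates the type I receptor kinase, encoded by Tgfbr1. The activated type I receptor phosphorylates Smad2 and Smad3, these join Smad4 and enter the nucleus, and Smad7, itself induced by the pathway, competes at the receptor and targets it for degradation. In brain, microglia are a main source of TGF-beta 1 and need the receptors for their resting identity, while TGF-beta 2 is made by astrocytes and neurons.

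Values are scaled read counts, in which the reads of a gene were divided by a factor of the library. The libraries hold 882263 to 4567615 recovered reads in MCAO mice and 1538901 to 9519548 in control mice, and the shallowest of each group are MCAO 2 and control 2. All 16 listed astrocyte markers were in the table and summed to 39687 to 51794 scaled reads in MCAO libraries and 41686 to 73467 in control libraries, where control 2 stood apart at 41686 against 73467 in control 1 and 72141 in control 3. All 18 microglia markers were in it too, at 2476 to 3365 in MCAO libraries and 664 to 889 in control libraries. Of 15 blood myeloid markers 4 were in the table, namely Lyz2, Csf3r, Cd14 and Fn1, and the 3 without Fn1, which is also a listed SMAD target, summed to 140.0 to 159 in MCAO libraries and 17.0 to 27.2 in control libraries. Every gene of the table reached at least 10.6 scaled reads in some library, which Csf3r and Cd14 did in MCAO libraries only. Their control means were 2.86 and 3.64, so their rise is partly set by which genes the table holds. The sum of endothelial markers (10 of 15 in the table) was 291 to 318 in MCAO libraries and 287 to 332 in control libraries, and that of mural cell and fibroblast markers (also 10 of 15) was 429 to 656 in MCAO libraries and 541 to 724 in control libraries. The latter list is mixed: Pdgfra and Cspg4 also mark oligodendrocyte precursors, and Dcn, Col1a1 and Col1a2 are on pathway lists too. On it Cspg4 was called higher after MCAO (log2 change 1.18, limma adjusted p = 0.0458), while Pdgfrb lay lower (-0.60, adjusted p = 0.166). All 16 neuron markers were present, at 26456 to 31074 in MCAO libraries and 28173 to 32749 in control libraries, but 2 of them fell and 0 rose. These were the dopamine receptor genes of striatal neurons, named after their values were seen: Drd1 at 45.7 ± 10.4 scaled reads after MCAO and 128 ± 17.3 in controls, and Drd2 at 16.3 ± 3.74 after MCAO and 66.7 ± 7.18 in controls (SD, n = 3 each; limma adjusted p = 0.00215 and 0.00202).

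The promoters of both ligands and both receptors are shown, since the libraries parted by group in 3 of these genes, Tgfb1, Tgfbr1 and Tgfbr2, and Tgfb2 is the other ligand. Each window runs from 250 bases before to 50 bases after the start that RefSeq gives (build GRCm38.p6, which is mm10), 5′ to 3′ on the gene's own strand, with GC boxes (GGGCGG or its reverse complement) in capitals. The windows lie at chr7:25686752-25687051 on the plus strand for Tgfb1, chr4:47352972-47353271 on the plus strand for Tgfbr1, chr9:116175314-116175613 on the minus strand for Tgfbr2 and chr1:186705940-186706239 on the minus strand for Tgfb2. The start used for Tgfb2 lies inside the annotated gene span, and Tgfbr1 has 2 windows in the table, of which the one at the annotated gene start is shown.
Tgfb1: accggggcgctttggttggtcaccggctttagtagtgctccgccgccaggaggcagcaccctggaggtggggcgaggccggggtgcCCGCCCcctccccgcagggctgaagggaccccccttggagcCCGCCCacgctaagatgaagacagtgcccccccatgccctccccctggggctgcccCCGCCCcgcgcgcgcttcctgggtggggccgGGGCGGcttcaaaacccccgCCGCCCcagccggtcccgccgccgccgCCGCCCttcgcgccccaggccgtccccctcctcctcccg
Tgfbr1: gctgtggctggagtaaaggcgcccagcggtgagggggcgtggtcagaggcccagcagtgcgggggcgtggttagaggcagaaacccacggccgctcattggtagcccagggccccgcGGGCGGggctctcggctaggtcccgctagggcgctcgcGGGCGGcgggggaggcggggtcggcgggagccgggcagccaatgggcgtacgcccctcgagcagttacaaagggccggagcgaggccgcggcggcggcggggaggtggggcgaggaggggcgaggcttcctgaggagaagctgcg
Tgfbr2: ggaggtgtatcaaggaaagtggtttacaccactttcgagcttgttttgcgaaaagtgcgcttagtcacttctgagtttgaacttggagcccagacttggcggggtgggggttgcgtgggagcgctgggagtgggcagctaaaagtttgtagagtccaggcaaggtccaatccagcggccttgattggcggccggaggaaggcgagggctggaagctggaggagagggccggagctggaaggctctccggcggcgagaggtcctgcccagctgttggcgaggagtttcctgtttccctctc
Tgfb2: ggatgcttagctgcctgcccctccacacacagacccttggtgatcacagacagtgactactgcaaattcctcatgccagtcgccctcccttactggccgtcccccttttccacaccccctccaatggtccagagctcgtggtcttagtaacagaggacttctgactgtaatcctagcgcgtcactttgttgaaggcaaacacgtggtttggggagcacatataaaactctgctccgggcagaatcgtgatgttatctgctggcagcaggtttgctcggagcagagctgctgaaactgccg

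GC boxes, the motif bound by Sp family factors, number 6 in the Tgfb1 window and 2 in that of Tgfbr1, and 0 in those of Tgfbr2 and Tgfb2. Of 32851 RefSeq windows of the same length, 35.7% hold at least 1. A TATA box (TATAAA, both strands) is present in the window of Tgfb2 alone among these 4, 31 bases before the start, and in 13.6% of all windows. The short SMAD motif CAGAC, on both strands, occurs 1 time in the Tgfbr2 window and 2 times in that of Tgfb2, against 49.6% of all windows with at least 1. The palindromic SMAD site GTCTAGAC and the AP-1 site TGANTCA have no match in the 4 windows, and are found in 0.213% and 7.81% of all windows. The motifs do not overlap one another in these windows, and a match describes letters only.

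Groups were compared with limma on log2(value + 1) over the 12549 genes whose mean reached 10, and a gene is called at a Benjamini-Hochberg adjusted p under 0.05. Among all genes tested, 387 were called (3.08%), 288 of them higher (2.3%) and 99 lower (0.789%) after MCAO, and the median log2 change was -0.01. All 8 TGF-beta genes were tested and limma called 0 of them. At an unadjusted p under 0.05 there were 3 (Tgfb1, Tgfbr1 and Tgfbr2), where 19.3% of all genes passed, and edgeR and DESeq2 on the recovered reads each called 1, Tgfb1. In these same 3 genes all MCAO libraries lay above all control libraries, as in 12.4% of all genes tested, and none of the 8 had all MCAO libraries below the controls, as in 12.5%; groups parted in either direction in 24.9% of all genes. Log2 changes were positive in 4 of the 8 and negative in 4, with a median of -0.05, where 48.7% of all genes tested were positive.

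**Figure D1:**
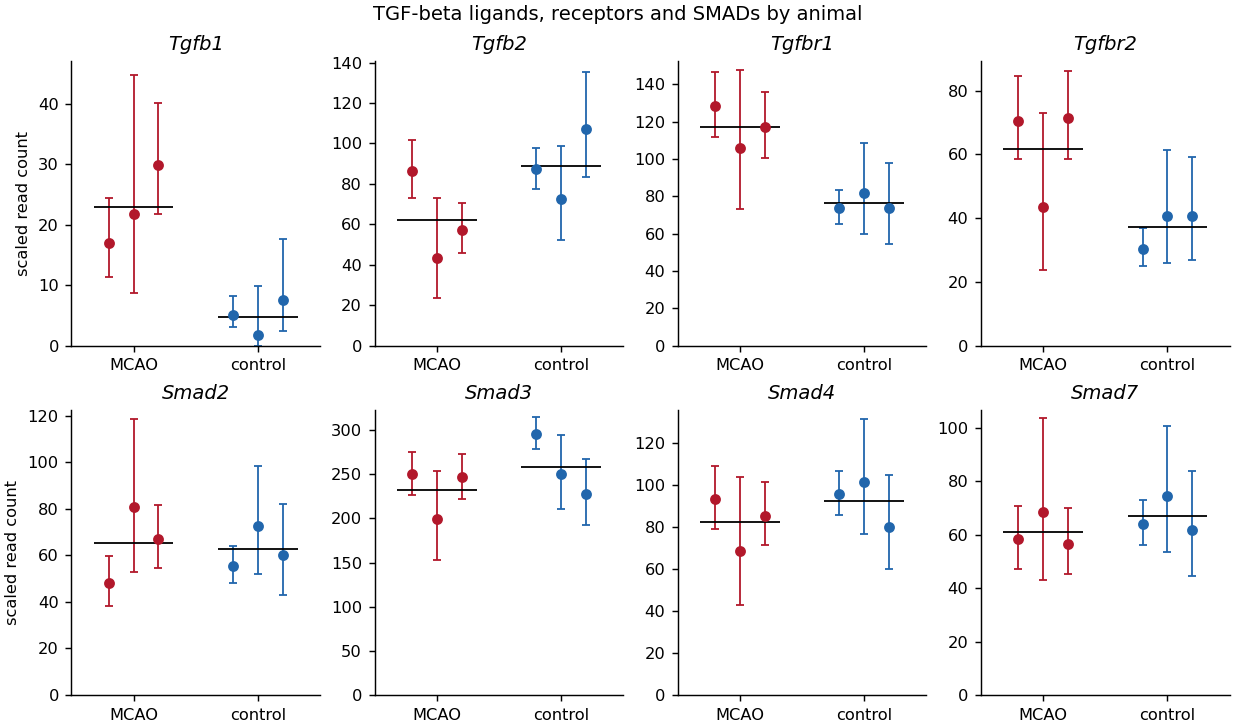
Scaled read counts (y axis, from 0) of the 8 genes in each of 3 MCAO and 3 control mice. Points are animals in the order 1 to 3, bars are 95% exact Poisson intervals that cover counting error only, and lines are group means; the groups part in Tgfb1, Tgfbr1 and Tgfbr2, and overlap in the other 5.

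Tgfb1 (chromosome 7, 25687002 to 25705077), the ligand of injury and inflammation, stood at 17.1, 21.8 and 30.0 scaled reads in MCAO 1, 2 and 3, against 5.18, 1.77 and 7.55 in controls 1, 2 and 3. Every MCAO library lay above every control, the nearest values being the 17.1 of MCAO 1 and the 7.55 of control 3. The means were 22.9 ± 6.53 after MCAO and 4.83 ± 2.90 in controls (SD, n = 3 each). The log2 change was 2.15 (SE 0.57, 95% interval 0.92 to 3.38) and missed the threshold (limma adjusted p = 0.0594). By unadjusted p it ranked 456th of the 12549 genes. Tgfb1 is a low gene in these libraries: its mean over the 6 lies at the 5.28th percentile of tested genes. That mean, 13.9, reached the filter of 10 through the MCAO libraries, as the control mean of 4.83 lies below it. A gene at the control level in both groups would not have been tested, and the same filter held for edgeR and DESeq2. With no filter on the mean the limma adjusted p was 0.0532. The values rest on 29, 7 and 45 reads in the MCAO libraries and 18, 1 and 5 in the controls. Counting alone allows 8.75 to 44.9 scaled reads in MCAO 2 and 0.0449 to 9.88 in control 2, and these intervals overlap.

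The call of Tgfb1 depends on the test. It passed with edgeR's quasi-likelihood test (log2 change 2.19, adjusted p = 0.0229) and with DESeq2 (2.21, adjusted p = 0.0154), both on recovered reads, and with a limma pseudocount of 5 (1.53, adjusted p = 0.0421). With 1 library left out, limma gave 1.68 to 2.50 with adjusted p from 0.0573 to 0.218, and the least change came without control 2, the library with 1 read.

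Tgfb2 (chromosome 1, 186622787 to 186709697), the ligand that astrocytes and neurons make, lay the other way. It stood at 86.5, 43.5 and 57.3 scaled reads in MCAO 1, 2 and 3 and at 87.2, 72.7 and 107 in controls 1, 2 and 3. MCAO 1 lay close to control 1 and above control 2, so the groups overlap, while MCAO 2 and 3 lay below all controls. Means were 62.4 ± 21.9 after MCAO and 89.0 ± 17.3 in controls (SD, n = 3 each). The log2 change was -0.54 (SE 0.26, 95% interval -1.11 to 0.02; limma adjusted p = 0.277). The change was -0.80 without MCAO 1 and -0.32 without MCAO 2, and neither was called.

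Set within each library, where the scale factor cancels, the log2 ratio of Tgfb1 to Tgfb2 was -2.34, -1.0 and -0.93 in MCAO 1, 2 and 3 and -4.07, -5.36 and -3.83 in controls 1, 2 and 3. The groups do not overlap in this ratio, whose means differ by 2.99 on the log2 scale, with the 1 Tgfb1 read of control 2 as its lowest point. The ratio was formed after the levels were known and is given without a test. Since it is of reads and not of reads per length, it does not say which ligand had more transcripts.

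The receptor genes had smaller differences than Tgfb1. Tgfbr1 (chromosome 4, 47353222 to 47414926), the kinase subunit that phosphorylates Smad2 and Smad3, stood at 128, 106 and 117 scaled reads in MCAO 1, 2 and 3 and at 74.0, 81.6 and 73.9 in controls 1, 2 and 3. Both groups were tight and did not overlap, with SDs of 11.3 around 117 after MCAO and 4.42 around 76.5 in controls (n = 3 each). The log2 change was 0.60 (SE 0.19, 95% interval 0.20 to 1.01), a 1.52-fold difference, and was not called (limma adjusted p = 0.0989). With 1 library left out the value kept to 0.54 to 0.68, with adjusted p from 0.112 to 0.226. The reads behind it were 218, 34 and 176 in the MCAO libraries and 257, 46 and 49 in the controls.

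Tgfbr2 (chromosome 9, 116087695 to 116175363), the ligand-binding subunit, stood at 70.6, 43.5 and 71.3 scaled reads in MCAO 1, 2 and 3 and at 30.5, 40.8 and 40.7 in controls 1, 2 and 3. MCAO 1 and 3 were far above the controls, but MCAO 2, at 14 reads, lay just above control 2. The counting interval of MCAO 2, 23.8 to 73.1 scaled reads, takes in all 3 controls. The means were 61.8 ± 15.8 after MCAO and 37.4 ± 5.93 in controls (SD, n = 3 each). The log2 change was 0.69 (SE 0.28, 95% interval 0.10 to 1.28; limma adjusted p = 0.195). It was 0.92 without MCAO 2 and 0.55 without control 1. With both shallowest libraries left out, chosen after seeing the data, it was 0.99 and was called (adjusted p = 0.0491). The within-library log2 ratio of Tgfbr1 to Tgfbr2 was 0.86, 1.28 and 0.72 in MCAO 1, 2 and 3 and 1.28, 1.00 and 0.86 in controls 1, 2 and 3, so the groups overlap in the balance of the subunits.

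**Figure D2:**
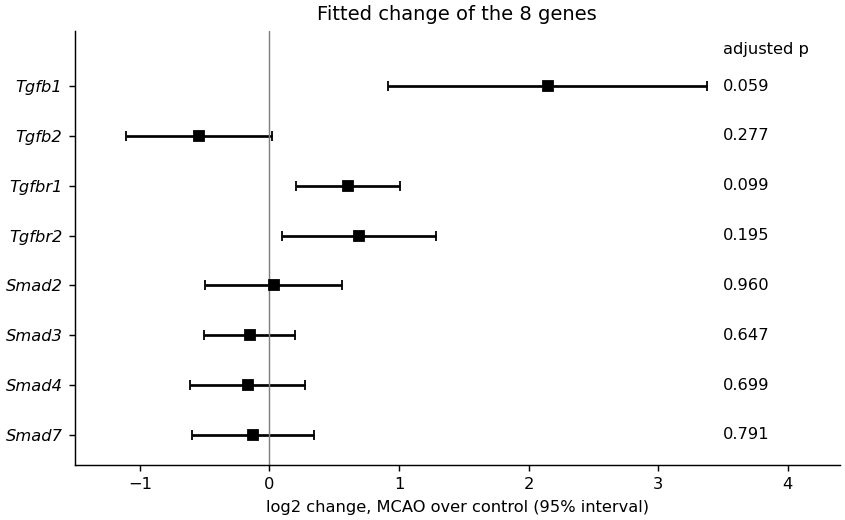
Fitted log2 change of each gene, MCAO over control (x axis), with its 95% interval from limma's moderated standard error and the adjusted p at the right. The intervals of Tgfb1, Tgfbr1 and Tgfbr2 lie above 0, while those of the other 5 genes include 0.

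Smad3 (chromosome 9, 63646766 to 63757994), the receptor-activated SMAD that binds DNA directly, stood at 250.04, 199 and 246 scaled reads in MCAO 1, 2 and 3 and at 296, 250.1 and 228 in controls 1, 2 and 3. The groups overlap, with a log2 change of -0.15 (SE 0.16, 95% interval -0.50 to 0.20; limma adjusted p = 0.647). It rests on 64 to 425 reads per library after MCAO and 141 to 1028 in controls, the most of the 8 genes, and its interval leaves out a rise of more than 1.15-fold. Smad2 (chromosome 18), the other receptor-activated SMAD of this pathway, stood at 48.2, 80.9 and 67.3 in MCAO 1, 2 and 3 and at 55.5, 72.7 and 60.4 in controls 1, 2 and 3. MCAO libraries held both the lowest and the highest value, and the log2 change of 0.04 (SE 0.25, 95% interval -0.49 to 0.56; adjusted p = 0.960) turned negative without control 1 (-0.05), without MCAO 2 (-0.13) and with quantile normalisation (-0.01).

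Smad4 (chromosome 18), the common partner of the activated SMADs, stood at 93.0, 68.4 and 85.3 scaled reads in MCAO 1, 2 and 3 and at 95.5, 101 and 79.98 in controls 1, 2 and 3. Its log2 change was -0.17 (SE 0.21, 95% interval -0.61 to 0.27; limma adjusted p = 0.699), with MCAO 2, at 22 reads, as the lowest library. Smad7 (chromosome 18), the inhibitor that SMAD signalling induces, stood at 58.2, 68.4 and 56.6 in MCAO 1, 2 and 3 and at 64.2, 74.5 and 61.9 in controls 1, 2 and 3. Its values were the tightest of the SMADs in both groups, at 61.1 ± 6.40 after MCAO and 66.9 ± 6.73 in controls (SD, n = 3 each), and its log2 change was -0.13 (SE 0.22, 95% interval -0.60 to 0.34; adjusted p = 0.791). The interval of Smad7 runs from 0.661 to 1.27 of the control level. These intervals do not show that the SMAD genes were alike in the groups, only that no difference past the threshold was found at this depth.

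Microglia markers were higher after MCAO, like the genes that parted. Of the 18 markers 13 rose and 0 fell, with a median log2 change of 2.28 and every change positive, and P2ry12 and Tmem119 were among the 5 not called. Some of the 18, such as Cd68 and Ly86 (control means 4.95 and 2.75), passed the filter on the mean through the MCAO libraries. The summed markers were 3365, 2476 and 3202 scaled reads in MCAO 1, 2 and 3 and 664, 889 and 779 in controls 1, 2 and 3. Within each group the library with the highest sum, MCAO 1 or control 2, had the lowest Tgfb1 and the highest Tgfbr1. Per 1000 scaled reads of these markers, Tgfb1 stood at 5.07, 8.79 and 9.36 in MCAO 1, 2 and 3 and at 7.80, 2.00 and 9.69 in controls 1, 2 and 3, and the groups overlap. Tgfbr1 stood at 36.6 to 42.7 in MCAO libraries and 91.8 to 111 in controls on this basis, and Tgfbr2 at 17.6 to 22.3 in MCAO libraries and 45.9 to 52.3 in controls. The summed markers were 3.88 times as high after MCAO, so any gene with a smaller rise is lower on this basis, and Tgfb2 and the 4 SMAD genes had all MCAO libraries below all controls as well (Smad3 at 74.3 to 80.4 in MCAO libraries and 281 to 446 in controls). Oligodendrocyte markers were also higher, with 7 of 15 risen, 0 fallen and sums of 14236 to 17449 in MCAO libraries and 9938 to 11364 in controls. Per 1000 scaled reads of these, the groups overlap in Tgfbr1 (6.06 to 8.23 in MCAO libraries, 6.71 to 7.44 in controls) and Tgfbr2 (2.50 to 5.01 in MCAO libraries, 3.07 to 3.70 in controls), and part in Tgfb1 (1.08 to 2.11 in MCAO libraries, 0.156 to 0.685 in controls). Per 1000 scaled reads of astrocyte markers, Tgfbr1 stood at 2.17 to 3.23 in MCAO libraries and 1.01 to 1.96 in controls. Tgfb1 parted in the same direction there, and Tgfbr2 overlapped. Tgfb1, Tgfbr1 and Tgfbr2 all parted, higher after MCAO, when set against neuron, endothelial, or mural and fibroblast markers. Against endothelial markers Tgfbr2 barely did, at 142.9 in MCAO 2, which rests on 14 reads, and 142.0 in control 2. Against blood myeloid markers, Tgfbr1 and Tgfbr2 were lower in all MCAO libraries, and Tgfb1 overlapped. The part of these cell types in the TGF-beta values was not tested, and in such bulk precipitates fewer or more cells of a type and less or more RNA per cell cannot be told apart.

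**Figure D3:**
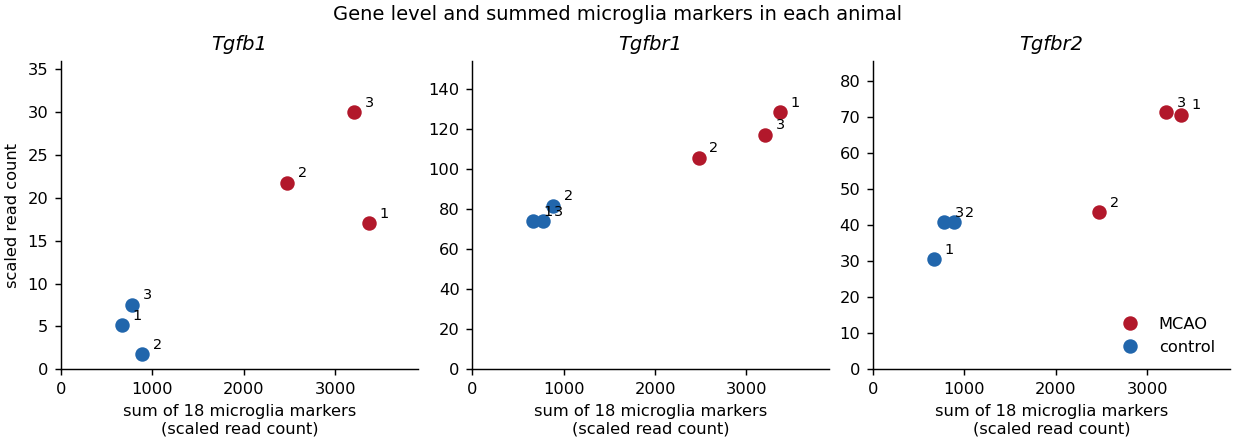
Scaled read count of Tgfb1, Tgfbr1 and Tgfbr2 (y axes) against the summed scaled read counts of 18 microglia markers (x axis) in 3 MCAO and 3 control mice, numbered by animal. All MCAO points lie to the right of and above all control points, and MCAO 2 has the lowest marker sum of its group.

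Genes with a pattern like that of Tgfb1 were sought, where the mean reached 50, by Pearson correlation of log2 values over the 6 libraries. The highest were Fxyd1, a regulator of the sodium pump (r = 0.995), the tetraspanin gene Cd63 (r = 0.994) and Aurkaip1, which encodes a protein of the mitochondrial ribosome (r = 0.992). Cd63 stood at 535, 622 and 627 scaled reads in MCAO 1, 2 and 3 and at 347, 270 and 407 in controls 1, 2 and 3. The points share the group difference and the depth of each library, and the genes were picked for these values, which are a description. Among the 8 genes themselves the highest correlations were those of Tgfbr1 with Tgfbr2 (0.90), of Smad3 with Smad4 (0.84) and of Tgfb1 with Tgfbr1 (0.78), over the same 6 libraries.

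Other genes of the pathway were taken from 6 lists, ordered by role, with 91 of 117 listed genes in the table and 90 tested. Of these 90, 4 rose and 3 fell, or 7.78%, against 3.08% of all genes, and the median log2 change was -0.12. The lists were chosen with earlier results of these data known, so setting these shares side by side is no test of the pathway. On the list of other ligands and ligand traps of the family, 15 were tested and limma called 0, with 3 at an unadjusted p under 0.05, and the median was 0.02. The list also holds Bmp1, a protease gene and neither ligand nor trap, which was 1 of the 3 (limma adjusted p = 0.0513). The most abundant were the follistatin-like gene Fstl1, at 167 ± 16.8 scaled reads after MCAO and 171 ± 21.1 in controls, and the BMP antagonist gene Nbl1, at 155 ± 11.3 after MCAO and 139 ± 20.8 in controls (SD, n = 3 each).

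Among 17 genes for latency and activation of the ligand, 1 fell and 0 rose, with a median of 0.02. At an unadjusted limma p under 0.05 there were 4 of the 17, where 19.3% of all genes passed. Itgb8 encodes the integrin beta subunit which, paired with alpha v, frees TGF-beta from its latent complex and is found on astrocytes in brain. It stood at 255, 159 and 233 scaled reads in MCAO 1, 2 and 3 and at 403, 323 and 376 in controls 1, 2 and 3. All MCAO libraries lay below all controls, and Itgb8 fell by 0.79 on the log2 scale (SE 0.18, limma adjusted p = 0.0353). The call was lost without control 1, control 3, MCAO 2 or MCAO 3 (adjusted p 0.0806 to 0.126). The most abundant gene of the list, Itgb5, another beta partner of alpha v, lay the other way, at 413, 386 and 457 in MCAO 1, 2 and 3 and 329, 227 and 324 in controls 1, 2 and 3 (log2 change 0.53, SE 0.17, adjusted p = 0.107). Astrocyte markers, with a median log2 change of -0.24 and 0 of 16 called (3 at an unadjusted p under 0.05), and microglia markers, with a median of 2.28, were measured in the same libraries. Without control 2, 6 of the 16 astrocyte markers were called lower and their median was -0.54. Without any other 1 library 0 were called, with medians of -0.32 to -0.06. Giving these settings for the markers was chosen after seeing the data. The part of these markers in the fall of Itgb8 was not tested.

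Of 13 other receptors and co-receptors 1 fell and 0 rose. Log2 changes were negative in 11 of the 13 and positive in 2 (median -0.41), where 48.7% of all genes were positive. At an unadjusted limma p under 0.05 there were 6 of the 13, against 19.3% of all genes. All MCAO libraries lay below all controls in 5 and above in 0, against 12.5% and 12.4% of all genes. Acvr1c, which encodes the activin and nodal receptor ALK7, stood at 50.6, 27.99 and 45.3 scaled reads in MCAO 1, 2 and 3 and at 78.9, 122 and 86.0 in controls 1, 2 and 3. It fell by 1.21 on the log2 scale (SE 0.27, limma adjusted p = 0.0294), with all MCAO libraries below all controls. That call was lost without control 2, control 3, MCAO 2 or MCAO 3 (adjusted p 0.0570 to 0.0953) and without control 2 and MCAO 2 together (0.0816). Bmpr2, the type II receptor of bone morphogenetic proteins and the most abundant gene of the list, stood at 424 ± 112 after MCAO and 570.1 ± 27.3 in controls (SD, n = 3 each; log2 change -0.46, SE 0.19, adjusted p = 0.195). Its change was -0.22 without MCAO 2.

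The 3 other SMAD genes in the table serve the bone morphogenetic protein branch, and limma called 0 of them (1 at an unadjusted p under 0.05; Smad9 was named after its value was seen). Smad9 stood at 38.2, 27.99 and 40.0 scaled reads in MCAO 1, 2 and 3 and at 73.4, 67.4 and 54.3 in controls 1, 2 and 3 (log2 change -0.86, SE 0.26, limma adjusted p = 0.0908). Smad1 was at 64.1 ± 10.02 after MCAO and 91.3 ± 24.1 in controls (SD, n = 3 each; adjusted p = 0.284), and Smad5 at 135 ± 23.4 and 140.4 ± 23.6 in the same order (adjusted p = 0.907).

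Among 24 SMAD regulators and partners 1 fell and 0 rose, with a median of -0.21. At an unadjusted limma p under 0.05 there were 10 of the 24, where 19.3% of all genes passed. All MCAO libraries lay below all controls in 8 and above in 3, against 12.5% and 12.4% of all genes. Log2 changes were positive in 6 of the 24, against 48.7% of all genes. The gene that fell was Sp1, a transcription factor of GC boxes that works with SMADs on many promoters, at 57.1, 49.8 and 52.0 scaled reads in MCAO 1, 2 and 3 and at 106, 97.6 and 101 in controls 1, 2 and 3. Sp1 fell by 0.93 on the log2 scale (SE 0.20, limma adjusted p = 0.0237), with narrow and separate groups, and the call was lost without control 1, control 3, MCAO 2 or MCAO 3 (adjusted p 0.0523 to 0.105). Fkbp1a, which encodes the immunophilin FKBP12 that holds the type I receptor inactive, was the most abundant of the list, at 1035, 768 and 841 in MCAO 1, 2 and 3 and at 674, 662 and 711 in controls 1, 2 and 3 (log2 change 0.36, SE 0.15, adjusted p = 0.208).

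Genes known as SMAD targets in other tissues held the other called genes. Of 18 tested, 4 rose and 0 fell, with a median log2 change of 0.22, and the 3 named here are also known as injury and matrix genes. Fn1, the fibronectin gene, stood at 132, 49.8 and 122 scaled reads in MCAO 1, 2 and 3 and at 14.7, 16.0 and 7.55 in controls 1, 2 and 3, a log2 change of 2.84 (SE 0.40, limma adjusted p = 0.00113). Tgfbi, a matrix adaptor gene named for its induction by TGF-beta, stood at 95.3, 49.8 and 117 in MCAO 1, 2 and 3 and at 27.3, 21.3 and 9.05 in controls 1, 2 and 3, a log2 change of 2.17 (SE 0.41, adjusted p = 0.00932). MCAO 2 was the lowest MCAO library in both genes and still above all controls, and the call of Tgfbi was lost without MCAO 3 (adjusted p = 0.0816).

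Timp1, the inhibitor of matrix metalloproteinases, stood at 40.0, 21.8 and 57.9 scaled reads in MCAO 1, 2 and 3, while controls 1 and 2 were at the floor of 1 and control 3 at 1.51, which is 1 read; it was called (limma adjusted p = 0.00140). The size of this change depends on the floor, and with a control mean of 1.17 Timp1 passed the filter through the MCAO libraries. The other 14 targets were not called, and log2 changes were positive in 10 of the 18, where 48.7% of all genes were positive. All MCAO libraries lay above all controls in 4 targets and below in 2, against 12.4% and 12.5% of all genes. The 2 below, named after their values were seen, were Ctgf (log2 change -0.63, limma adjusted p = 0.240) and Col4a2 (-0.52, adjusted p = 0.333). Fn1 is also on the blood myeloid list. The other 3 tested genes of that list rose in the same libraries, with the sums without Fn1 given above. Of these, Csf3r and Cd14 passed the filter through the MCAO libraries, so their rise adds little. The part of these genes in the target list was not tested.

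**Figure D4:**
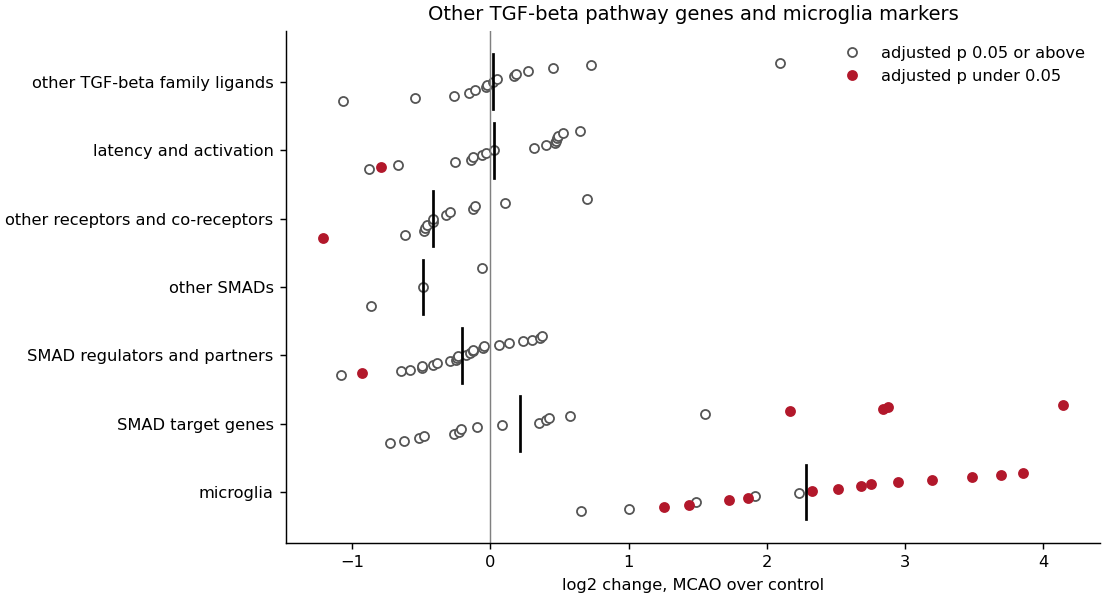
Log2 change, MCAO over control (x axis), of each tested gene in 6 lists of TGF-beta pathway genes and in the microglia marker list; filled points passed limma at an adjusted p under 0.05 and vertical lines are list medians. Called pathway genes are 4 higher targets and 3 lower genes (Itgb8, Acvr1c and Sp1), and 13 of 18 microglia markers were called.

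**Figure D5:**
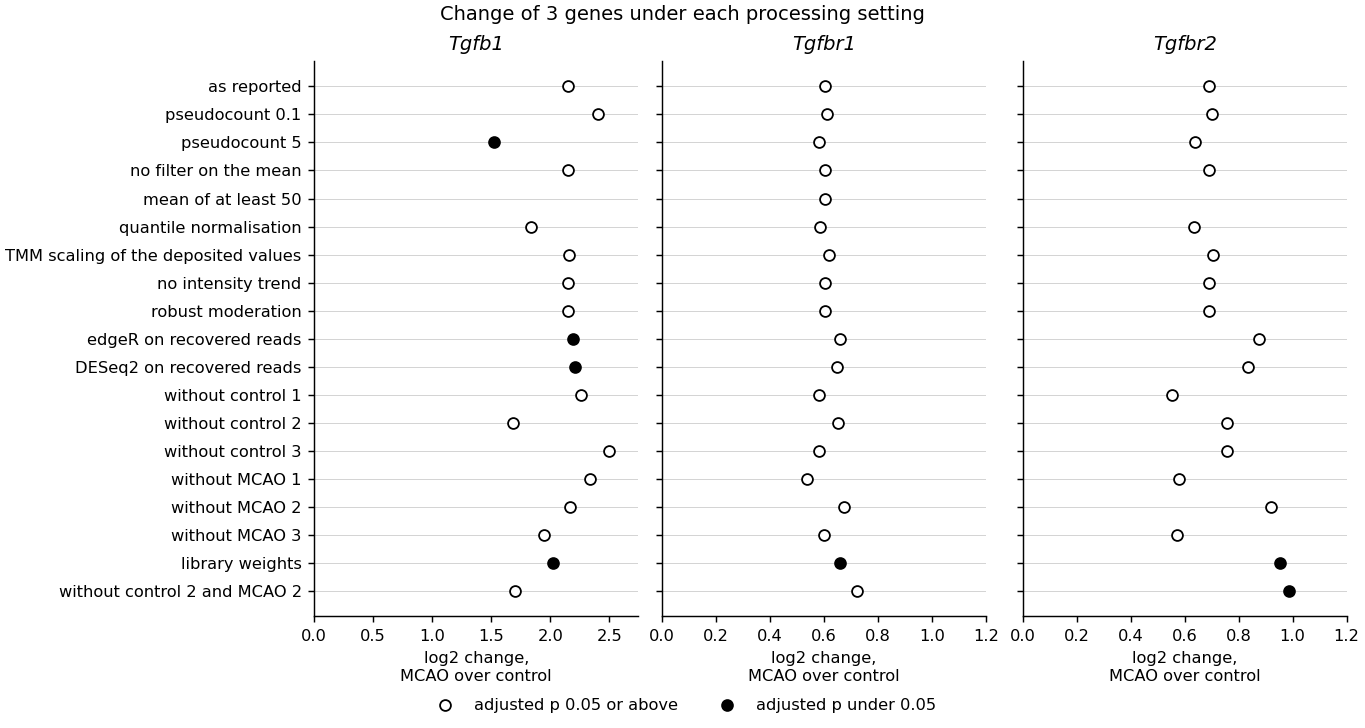
Log2 change, MCAO over control (x axes), of Tgfb1, Tgfbr1 and Tgfbr2 under each processing setting (rows); filled points have an adjusted p under 0.05. All points are above 0; Tgfb1 was called in 4 settings, Tgfbr1 in 1 and Tgfbr2 in 2, and Tgfb1 and Tgfbr2 have no point at a mean of at least 50.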

How the data were processed

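RNA of RiboTag precipitates from 3 MCAO and 3 control mice was sequenced as polyA RNA (Illumina TruSeq). Per the labels, the RNA of each animal was precipitated 2 times and pooled; 1 column holds both technical replicates that the series design mentions for an animal, so n counts animals. The deposited values are a normalised signal per gene, with a floor at 1, and how the authors counted, filtered and scaled the reads, and whether strand was used, is not given in these sources. The submitters' processing notes list the build mm10 and, in no stated role, DESeq2, R 3.3.1, Partek 6.6, HISAT2 and CASAVA 1.8.

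Each column consists of whole multiples of a step, which is smallest in control 1 (0.288) and largest in MCAO 2 (3.11). Values divided by it fell within 0.1 of a whole read in 99.95% of those above the floor in control 1 and 100% in the others, although the floor hides the lowest multiples, up to 3 reads in control 1, and the column of MCAO 2 alone passes a stricter reading of the lowest values. Exact Poisson intervals (95%) are of these reads and cover counting error alone, as PCR duplicates were not separable. No 2 libraries were identical or alike within sampling noise.

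The test was limma 3.58.1 (R 4.3.3; empirical Bayes with intensity trend, two-sided, all 6 libraries, no covariate) on log2(value + 1), which understates the change of low genes. Alternatives were other pseudocounts, filters, scalings and moderation, edgeR 4.0.16 and DESeq2 1.42.0 on the recovered reads, and each animal left out; the code was tested on simulated data. Named pathway genes are up to 3 called genes per list, or else the most abundant until 2 are named; some counted genes are not reported here by name. The members, lists and tests were chosen with earlier results of these data known. Promoter windows and positions are RefSeq's, on GRCm38.p6; windows were found for 5 of the 8 genes.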

Additional observations from a re-analysis of the deposited data

How the results depend on the processing

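Called genes among the 8 numbered 0 with limma as reported and without any 1 animal (0 to 0), 1 with a pseudocount of 5, with edgeR or with DESeq2 (Tgfb1 each time), and, with alternatives chosen after seeing the data, 3 with library weights (Tgfb1, Tgfbr1 and Tgfbr2; adjusted p 0.0146, 0.0174 and 0.0177) and 1 without control 2 and MCAO 2 (Tgfbr2). Pathway genes called numbered 7 as reported, 3 with no intensity trend, 18 with library weights and 2 to 6 with 1 animal left out (3 without control 3, 2 without MCAO 3). All called genes numbered 387 as reported, 157 with no intensity trend, 1002 with library weights and 148 to 306 with 1 animal left out (227, 245, 234 and 148 without control 1, control 3, MCAO 2 and MCAO 3). The cause was not tested. With no intensity trend Acvr1c, Itgb8 and Tgfbi were lost (adjusted p 0.121, 0.179 and 0.0917), while library weights added Itgb5 and Smad9 (0.0479 and 0.0274). The direction of Tgfb1, Tgfb2, Tgfbr1, Tgfbr2, Smad3 and Smad7 was kept in every setting run. Log2 changes near 0 turned sign in Smad2 (-0.0101 with quantile normalisation, -0.0228 without control 2 and MCAO 2, and -0.13 to 0.24 with 1 animal left out), Smad4 (0.0259 without control 2 and MCAO 2), Fstl1 (-0.13 to 0.0559 with 1 animal left out) and Smad5 (-0.20 to 0.0852 with 1 animal left out). Where an animal is left out, the other 5 share 1 estimate of the spread. No paired analysis was possible because the labels number the animals without repeats and give no pairing. Depth limits Tgfb1 most, with 7 reads in MCAO 2 and 1 in control 2.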
